A study of Rattus norvegicus with 6 samples.

Results

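The genes described here are those of the cytosolic ribosome, taken by symbol from the feature table shared by 6 single-nucleus libraries of the rat nucleus accumbens shell. Every symbol that starts with Rpl or Rps and a digit was included, with Rplp0, Rplp1, Rplp2 and Rpsa, and the 10 Rps6k kinase genes were left out. This gave 98 of 32883 features, under 88 distinct symbols. Of these features, 89 had at least 1 unique molecular identifier (UMI, a counted transcript molecule) in the nuclei kept, and 71 had 500 or more. The 9 features listed at 0 were Rpl8, Rpl35a, Rpl36al, Rpl38, Rps10l1, Rps15al4, both Rpl7a features and 1 of the Rpl21 features. The name rule also took in Rps19bp1, which encodes a protein that binds ribosomal protein S19 and is not itself a ribosomal subunit.

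The study profiled nuclei of adult Long-Evans rats of both sexes, 90 to 100 days old and housed in pairs, with no treatment or genotype named in the labels used here. Each library came from tissue punched from frozen 200 µm slices and pooled from 4 animals of 1 sex, and there were 3 male and 3 female pools. Counts were made with the 10x 3′ v3.1 chemistry, which tags transcript 3′ ends, so levels are given in CPM (a gene's UMIs relative to all UMIs of the library or class) and are not scaled to gene length. The replicate is the pool. For sex and for sets of libraries, p-values measure the spread between pools. Where classes or groups of nuclei of the same library were compared, they measure the spread left once differences between libraries are removed. In the class comparisons that spread was taken over all classes of the fit, so these p-values do not measure the spread of the pools. The labels' library source field is worded differently for male pool 1 and female pool 3 (set A here) than for female pools 1 and 2 and male pools 2 and 3 (set B here). What that wording stands for is not given.

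The cytosolic ribosome is built from a large and a small subunit, each a scaffold of ribosomal RNA carrying many proteins that are made in near equal amounts. Most of their mRNAs begin with a run of pyrimidines directly at the transcription start (a TOP motif), through which growth signalling sets their translation together. The mRNAs are abundant, short and translated in the cytoplasm, whereas a nuclear preparation retains mainly RNA inside the nucleus and what adheres to it. A separate set of proteins, encoded by the Mrpl and Mrps genes, builds the ribosome inside mitochondria.

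The start regions of several members are printed because they carry the shared sequence feature of the family, and because the results return to these genes. Each is 20 bases before and 20 bases from the annotated start onward, taken from RefSeq (assembly GRCr8, not the build of the counts). A run of consecutive C or T is in capitals where 8 or more of its bases lie in the stretch from 10 bases before to 15 bases after the start. A run that reaches this stretch only with its end, as in Rpl21, was not counted.
Rplp1: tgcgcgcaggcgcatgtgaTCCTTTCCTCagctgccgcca
Rpl19: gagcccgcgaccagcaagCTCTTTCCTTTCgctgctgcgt
Rpl37a: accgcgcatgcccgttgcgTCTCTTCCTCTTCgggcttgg
Rps9: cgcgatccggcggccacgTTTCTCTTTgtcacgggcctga
Rpl41: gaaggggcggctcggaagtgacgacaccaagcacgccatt
Rpl7l1: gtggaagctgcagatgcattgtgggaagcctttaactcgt
Rps19bp1: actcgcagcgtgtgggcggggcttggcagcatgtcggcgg
These windows lie at chr8:71290853-71290892 on the minus strand (Rplp1), chr10:83519044-83519083 on the plus strand (Rpl19), chr9:81748071-81748110 on the plus strand (Rpl37a), chr1:74430418-74430457 on the minus strand (Rps9), chr7:1563478-1563517 on the minus strand (Rpl41), chr9:21695698-21695737 on the plus strand (Rpl7l1) and chr7:113693004-113693043 on the minus strand (Rps19bp1). The last 3 have no such run in the window searched.

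Of the 88 symbols, 67 had a promoter in the RefSeq table, with 68 promoters. The pyrimidine run was present on the sense strand in 37 of these 68, or 54.4%. It was present in 4 of 65 promoters of mitochondrial ribosomal protein genes (6.15%) and in 8.9% of the 33469 promoters of the whole table. The 6 letters CTTTCC within the same stretch were found in 19.1%, 1.54% and 0.938% of those sets. A match describes letters only, and annotated starts can differ from the starts used in brain.

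Libraries differed in ways that bear on the members and are given first. Kept nuclei numbered 14325 and 8176 in female pool 3 and male pool 1 (set A), and 2807 to 3088 in the 4 libraries of set B. Mitochondrial genes took 0.227% and 0.360% of UMIs in the set A libraries and 1.40% to 2.69% in set B. Between 45 and 136 barcodes of each library also occurred in another library. No 2 libraries of a sex agreed within sampling noise. Classes were set by clustering without the ribosomal protein genes and named from marker genes: 57.6% of the 34362 kept nuclei fell in named classes and 7.77% in clusters with markers of more than 1 class, and the rest kept a cluster number. The class used as reference, D1 MSN-like (5143 nuclei, spiny projection neurons of the dopamine D1 receptor type), had 3 of its 6 markers high (Drd1, Pdyn and Isl1), none of them among its 10 leading genes. Class names are those of the marker lists. The Sst/Npy interneuron-like class had Sst, Nos1 and Chodl high but not Npy. The Pvalb/Pthlh interneuron-like class had Pvalb, Kit and Crtac1 high, and Pthlh was not scored.

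Ribosomal protein genes together gave 0.289% of the UMIs of kept nuclei, 543057 UMIs in all. Genes of the large subunit (symbols starting with Rpl) gave 59.3% of these UMIs and genes of the small subunit 40.7%. In the libraries, the summed share was 0.369% in female pool 1, 0.537% in female pool 2, 0.168% in female pool 3, 0.242% in male pool 1, 0.489% in male pool 2 and 0.734% in male pool 3. The lowest values were thus those of the set A libraries, and the groups of libraries did not overlap. Per nucleus this was 21.4, 20.6, 9.13, 16.6, 23.3 and 27.9 UMIs in the same order, with the set A libraries again lowest. When all 15 classes with at least 20 nuclei in every library were weighted equally, the shares became 0.494%, 0.690%, 0.256%, 0.320%, 0.658% and 0.904%, in the same order of libraries.

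Rpl41, which encodes the very short basic protein eL41 of the large subunit, had most UMIs (19910, or 3.67% of all member UMIs). Its level was 124 CPM in female pool 1, 179 in female pool 2, 64.6 in female pool 3, 91.8 in male pool 1, 166 in male pool 2 and 286 in male pool 3. Rplp1, an acidic protein of the stalk through which the large subunit engages elongation factors, followed with 113, 208, 50.4, 75.8, 169 and 255 CPM. Both genes had the order of the summed share at its ends, lowest in female pool 3 and highest in male pool 3. Rps9, a protein of the small subunit's body that helps keep decoding accurate, departed from it with 177, 107, 43.9, 55.5, 172 and 197 CPM: female pool 1 stood above female pool 2. The 10 members with most UMIs, among them Rpl41, Rplp1, Rps9, Rpl27a, Rpl19, Rpl3, Rpl37a, Rps2 and Rpl13, made up 28.1% of member UMIs.

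**Figure D1:**
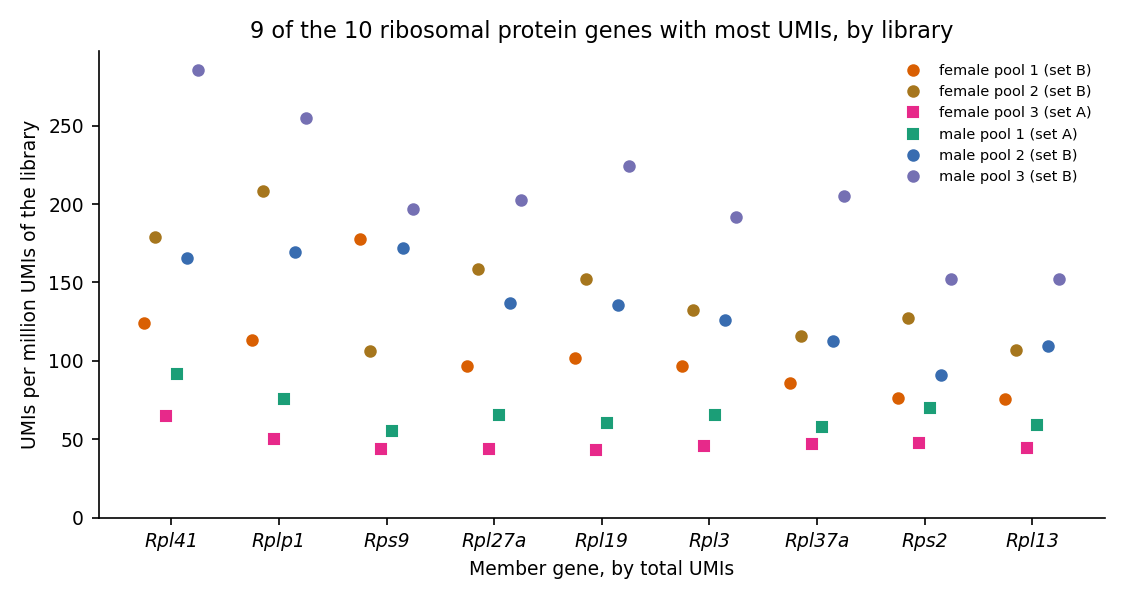
Level of 9 of the 10 members with most UMIs, in CPM (vertical axis), with 1 point per library, squares for set A and circles for set B. For each of these genes the 2 squares lie below the 4 circles, and Rps9 is the gene whose female pool 1 value (177) lies above that of female pool 2 (107).

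Of the 71 members with 500 or more UMIs, 66 had all 4 set B libraries above both set A libraries. Male pool 3 was the highest library for 65 of the 71 and female pool 3 the lowest for 68. The same counts were not made over all genes, so how far this order is particular to the members is not known. The 5 exceptions to the separation of the sets were Rpl4, Rpl13a, Rpl7l1, Rps27l and the Rps10 feature ENSRNOG00000000490. Rpl7l1, a relative of Rpl7 with a role in ribosome assembly, had 4.51, 5.20, 4.60, 5.60, 6.31 and 5.72 CPM from female pool 1 to male pool 3, a range in which the sets overlapped. That Rps10 feature had 7.24, 10.8, 7.81, 9.38, 7.76 and 7.59 CPM, whereas the second Rps10 feature, ENSRNOG00000052141, had 32.3, 63.0, 12.6, 24.1, 50.7 and 84.0 CPM. How the counting divides reads between features of the same symbol is not given, so values of the 18 features under the 8 repeated symbols are uncertain.

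Several close relatives of ribosomal protein genes were lower than the gene they resemble. Rpl3l, the striated-muscle form of Rpl3, had a mean of 0.374 ± 0.077 CPM (SD, n = 6), beside 109.7 ± 52.5 for Rpl3. Rpl10l, a form known from the testis, had 0.0751 ± 0.0544 CPM beside 64.6 ± 23.7 for Rpl10, its X-linked parent. Rpl7l1 had 5.32 ± 0.693 CPM beside 84.1 ± 38.6 for Rpl7, and Rps27l, a p53-inducible relative, had 5.76 ± 2.18 CPM beside 45.9 ± 24.6 for Rps27. Rps4y2 had 1.10 ± 0.505 CPM beside 44.7 ± 25.0 for the Rps4x feature ENSRNOG00000003201. Rpl39 and Rpl39l were both near 0, with 3 and 20 UMIs in all, so that here the relative had the more UMIs. Rpl22l1 reached 39.9 ± 21.4 CPM, a level in the range of the main members. It could not be set beside Rpl22, which was not among the features. Near-identical copies share reads, so a low value of such a gene is uncertain.

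The first comparison asked whether the members followed the sets of libraries, which differ in mitochondrial share. In edgeR's quasi-likelihood test with Benjamini-Hochberg adjustment over all genes, with sex as a covariate, 68 of the 74 members tested were higher in set B than in set A and none was lower. Of all 16719 genes, 20.7% were called higher. The members' median log2 fold change was 1.35, against 0.03 for all genes. By role the 42 large-subunit members had a median of 1.30 (39 higher) and the 32 small-subunit members 1.44 (29 higher).

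Rpl31 and Rps3a were among the members with the smallest p-values. Rpl31, a protein near the exit of the nascent peptide tunnel, had 48.6, 65.2, 15.3, 23.1, 74.8 and 107 CPM from female pool 1 to male pool 3 and a log2 fold change of 1.87 (SE 0.20, edgeR adjusted p = 0.0008). Rps3a, a small-subunit protein at the mRNA exit side, had 71.3, 104, 19.8, 30.6, 95.2 and 147 CPM and a log2 fold change of 1.996 (SE 0.22, edgeR adjusted p = 0.00094). In both genes the libraries of the sets did not overlap. The 6 members not called were Rpl4, Rpl13a, Rpl7l1, Rps27l, Rps19bp1 and the lower Rps10 feature, with log2 fold changes from -0.11 to 0.61.

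Without female pool 3 the count of members called higher was 13, without male pool 1 it was 24, and without male pool 3 it was 52. In nuclei under 1% mitochondrial UMIs alone it was 64 of 73 tested, beside 21.3% of all genes called higher. Scaled to nuclei in place of UMIs (a scale added after seeing the data), 20 members were called higher, beside 7.09% of all genes. Of the mitochondrial ribosomal protein genes, 31 of 72 tested were higher and none lower, with a median of 0.51. Of the abundant cytoplasmic mRNAs fixed for comparison (ferritin, ubiquitin, calmodulin, thymosin and the like), 9 of 12 were higher with a median of 0.79, and of the translation factors and other TOP genes 6 of 18 with a median of 0.36. Set, nuclei per library and mitochondrial share separate the same libraries and cannot be told apart in this comparison. Class make-up differed too. Of 2103 glutamatergic neuron-like nuclei, 1664 were in female pool 3 and 437 in male pool 1. Members took 0.105% and 0.145% of their UMIs, beside 0.140% and 0.159% in D1 MSN-like nuclei of the same libraries. This class was not among those weighted equally above, and its part in the fit was not tested.

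To separate mitochondrial share from library, nuclei of the same library were grouped by the percentage of their UMIs that were mitochondrial. The summed member share was higher at each of the 19 steps between neighbouring groups of at least 20 nuclei, across the 6 libraries. In male pool 1 it went from 0.137% in nuclei under 0.2% to 1.26% in nuclei at 2% to 5%, and in female pool 3 from 0.117% to 1.07%. In female pool 1 it went from 0.217% (0.2% to 0.5%) to 0.551%, and in male pool 3 from 0.366% to 0.983%. How the sets of libraries stood to each other depended on the group of nuclei. In nuclei at 0.5% to 1% the shares were 0.287%, 0.279%, 0.342%, 0.456%, 0.379% and 0.472% from female pool 1 to male pool 3. The set A libraries (0.342% and 0.456%) lay within the range of set B there. In nuclei at 0.2% to 0.5% they lay below it, with 0.201% and 0.203% beside 0.217% to 0.366% in the 3 libraries of set B that had such a group. In nuclei at 2% to 5% they lay above it, with 1.07% and 1.26% beside 0.551% to 0.983%.

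**Figure D2:**
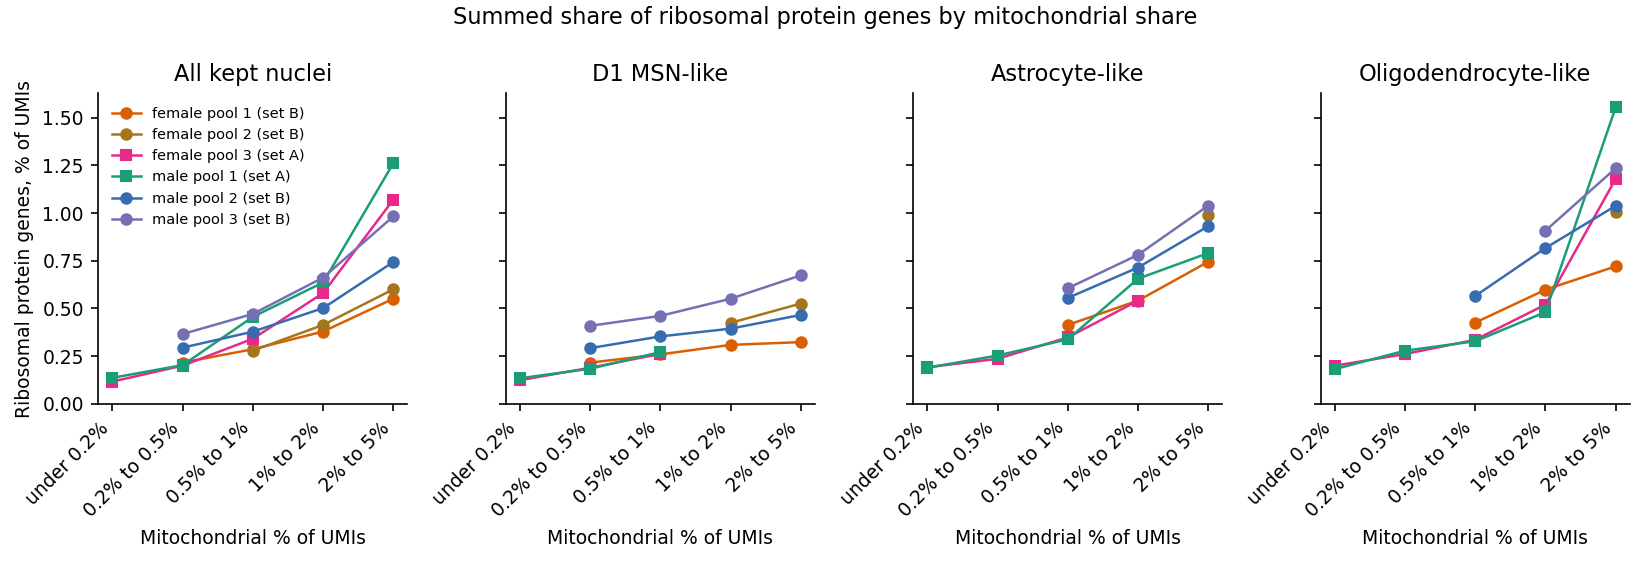
Summed member share (percent of UMIs, vertical axis) in groups of nuclei with rising mitochondrial share (horizontal axis), for all kept nuclei and 3 classes, with 1 line per library, squares for set A, circles for set B, and groups of at least 20 nuclei. Lines rise at each step in all panels, from 0.137% to 1.26% in all nuclei of male pool 1 for example.

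The same order held within classes. Within D1 MSN-like nuclei the share was higher at 14 of 14 steps, and within D2 MSN-like, astrocyte-like and oligodendrocyte-like nuclei at 13 of 13 steps each. From the first to the last group it was 1.24 to 2.11 times as high in D1 MSN-like nuclei, 1.68 to 4.17 times in astrocyte-like nuclei and 1.36 to 8.53 times in oligodendrocyte-like nuclei. First and last groups differed between classes, so these ratios cannot be compared between them. In female pool 3 and male pool 1, D1 MSN-like nuclei ended at 0.5% to 1% (2.11 and 2.02 times). Oligodendrocyte-like nuclei of these libraries ran to 2% to 5% (5.90 and 8.53 times). In D1 MSN-like nuclei at 0.5% to 1%, female pool 1, female pool 3 and male pool 1 had 0.260%, 0.262% and 0.271%, beside 0.354% in male pool 2 and 0.461% in male pool 3 (female pool 2 had 18 such nuclei and was left out). Whether the classes differ in this respect was not tested. Over all kept nuclei the last group was the shallower one in each library, with median UMI counts per nucleus of 5325.5 to 9815 in the first group and 1839 to 2859 in the last. Within classes depth did not always fall: it was 3570 and 3922 in astrocyte-like nuclei of male pool 1, and 1671 and 1679 in oligodendrocyte-like nuclei of female pool 3. Member UMIs per nucleus over all kept nuclei were 7.77 and 33.7 in female pool 3 and 14.3 and 56.6 in male pool 1. They were 22.7 and 23.8 in female pool 1, 23.2 and 24.9 in male pool 2, and 24.5 and 31.1 in male pool 3, while in female pool 2 they were lower in the last group (30.75 and 20.04).

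Gene by gene, nuclei at 1% to 5% were set against nuclei under 1% of the same libraries, with library as a block and mitochondrial genes left out of the totals. Over all kept nuclei 69 of 74 members were higher and none lower (edgeR quasi-likelihood test), beside 16.7% of all genes called higher, and the members' median log2 fold change was 1.31 against -0.06 for all genes. Of the 74 members, 68 were higher in all 6 libraries, a count not made over all genes. Rpl19, a large-subunit protein that bridges the subunits, had 65.6 CPM under 1% and 134 at 1% to 5% in female pool 1, 54.2 and 162 in female pool 2, and 33.2 and 273 in female pool 3. In male pools 1, 2 and 3 it had 44.7 and 262, 88.3 and 176, and 115 and 266 CPM. Its log2 fold change was 1.66 (SE 0.33, edgeR adjusted p = 0.0116). The ratio was largest in the set A libraries (8.21 and 5.86) and 1.99 to 2.98 in the others.

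The smallest p-values in this comparison belonged to the Rps27a feature ENSRNOG00000034246 (log2 fold change 1.76), the Rps19l2 feature ENSRNOG00000037897 (1.65) and the Rpl32 feature ENSRNOG00000032605 (1.96), all under repeated symbols and of low level. The median was 1.30 for large-subunit and 1.41 for small-subunit members. Without male pool 1 the count of members called higher was 24, with a median of 1.14. Barcodes at 5% or more, which were removed from all other comparisons, had 70 of 72 members higher than nuclei under 1%, beside 31.4% of all genes, with a median of 3.14. In these removed barcodes the summed share was 1.52%, 1.30%, 2.26%, 2.55%, 2.06% and 2.33% from female pool 1 to male pool 3. Here the set A libraries were no longer the lowest.

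Within D1 MSN-like nuclei, where 3 libraries had enough nuclei on both sides, 19 of 70 members were higher and none lower, beside 1.39% of all genes. Rpl23, a large-subunit protein, had 55.3 and 74.9 CPM under 1% and at 1% to 5% in female pool 1, 62.4 and 109 in male pool 2, and 93.7 and 156 in male pool 3 (log2 fold change 0.64, SE 0.11, edgeR adjusted p = 1.9e-05). Rplp1 had 64.0 and 92.3, 98.1 and 151, and 156 and 209 CPM in the same libraries (0.50, SE 0.09, edgeR adjusted p = 0.0001). Both genes were higher in each of the 3 libraries, as were 54 of the 70 members, a count not made over all genes. DESeq2 called none (43 had an unadjusted p under 0.05 in edgeR), and each library left out in turn gave 10 to 12 members. The median was 0.35 against -0.01 for all genes.

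Within astrocyte-like nuclei of 5 libraries, 41 of 63 members were higher and none lower, beside 2.41% of all genes, with a median of 1.02. Rpl37a, a zinc-binding protein of the large subunit, had 84.3 and 187 CPM in female pool 1, 64.0 and 216 in female pool 3, and 49.5 and 220.5 in male pool 1. In male pools 2 and 3 it had 126 and 197, and 152 and 285 CPM (log2 fold change 1.41, SE 0.20, edgeR adjusted p = 5.8e-06). It was higher in each of the 5 libraries. Without female pool 3 the count was 14, without male pool 1 it was 19, and DESeq2 called 25.

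Within oligodendrocyte-like nuclei of 4 libraries, 62 of 64 members were higher and none lower, beside 6.96% of all genes, with a median of 1.48. Rpl19 had 61.4 and 211 CPM in female pool 1, 80.0 and 271 in female pool 3, 67.4 and 341 in male pool 1, and 172 and 264 in male pool 2 (log2 fold change 1.84, SE 0.18, edgeR adjusted p = 2.9e-08). It was higher in each of the 4 libraries, as were 56 of the 64 members, a count not made over all genes. The 2 members not called were Rpl30 (log2 fold change 1.14) and Rpl31 (0.67).

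Counted per nucleus, so that a lower total no longer raises a share, fewer members were called higher in nuclei at 1% to 5%. Over all kept nuclei 26 were higher and 3 lower, beside 2.64% of all genes higher. In D1 MSN-like nuclei 10 were higher, beside 0.559% of all genes, in astrocyte-like nuclei 25, beside 1.05%, and in oligodendrocyte-like nuclei 30, beside 1.41%. The members' median stayed above 0 in all 4 (0.49, 0.15, 0.64 and 1.12), whereas the median of all genes was -0.85, -0.22, -0.38 and -0.28.

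Other lists gave the following counts in nuclei at 1% to 5%. All 12 tested abundant cytoplasmic mRNAs were higher over all kept nuclei (median 1.42) and within oligodendrocyte-like nuclei (1.41), 10 of 12 within astrocyte-like nuclei (1.03) and 11 of 12 within D1 MSN-like nuclei (0.46). Mitochondrial ribosomal protein genes were called higher in 38 of 72, 3 of 37, 1 of 21 and 0 of 69 in that order. Translation factors and TOP genes were higher in 13 of 18 over all nuclei, with a median of 0.80. A list of 6 spiny neuron transcripts (Penk, Tac1, Pde10a and others) had been taken as transcripts that glia mostly lack. Of these, 1 of 6 was higher within oligodendrocyte-like nuclei (median 0.51) and 0 of 6 within astrocyte-like nuclei (0.52). The part of these lists in the members' result was not tested.

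The second set of comparisons placed classes side by side within libraries. Among classes with at least 20 nuclei in 5 or 6 libraries, members took most of the UMIs in cluster 3 (1.28% ± 0.619, SD, n = 6) and cluster 11 (1.14% ± 0.372), then in microglia-like (0.851% ± 0.416, n = 5), oligodendrocyte-like (0.715% ± 0.318, n = 6), astrocyte-like (0.608% ± 0.300) and OPC-like nuclei (oligodendrocyte precursors, 0.596% ± 0.291). Endothelial-like nuclei reached that number only in the set A libraries, with 0.670% in female pool 3 and 0.630% in male pool 1, or 4.77 and 3.95 times the D1 MSN-like value. In female pool 3 this was above cluster 3 (0.591%) and in male pool 1 below it (0.757%). The named neuronal classes described here lay lower on average, with 0.463% ± 0.267 in Sst/Npy interneuron-like, 0.352% ± 0.185 in D2 MSN-like, 0.332% ± 0.170 in D1 MSN-like, 0.332% ± 0.147 in Pvalb/Pthlh interneuron-like and 0.256% ± 0.144 (n = 4) in cholinergic neuron-like nuclei. The unnamed clusters 10 and 8 lay between, at 0.572% ± 0.272 and 0.475% ± 0.246. Cluster 10 had 1.60 to 1.83 times the D1 MSN-like share, with 57 of the 71 members of 500 or more UMIs above D1 MSN-like nuclei in all 6 libraries, and cluster 8 had 1.16 to 1.68 times that share, with 44 of 71. These counts of members were not made over all genes. The spread over libraries was large beside the differences, but the order within a library was steadier. Oligodendrocyte-like nuclei had 0.620%, 0.978%, 0.336%, 0.374%, 0.898% and 1.08% from female pool 1 to male pool 3, beside 0.281%, 0.490%, 0.140%, 0.159%, 0.370% and 0.552% in D1 MSN-like nuclei. The ratio was 1.96 to 2.43 over the 6 libraries, all above 1. It was 1.57 to 1.97 for astrocyte-like and 1.72 to 1.999 for OPC-like nuclei, also above 1 in all 6. For cholinergic neuron-like nuclei, whose mean leaves out female pool 2 and male pool 2, the ratio was 0.814 to 1.08. It was above 1 in 1 of these 4 libraries, so the mean of 0.256% is not directly comparable with means over 6 libraries. Astrocyte-like and OPC-like shares did not differ beyond their spread.

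**Figure D3:**
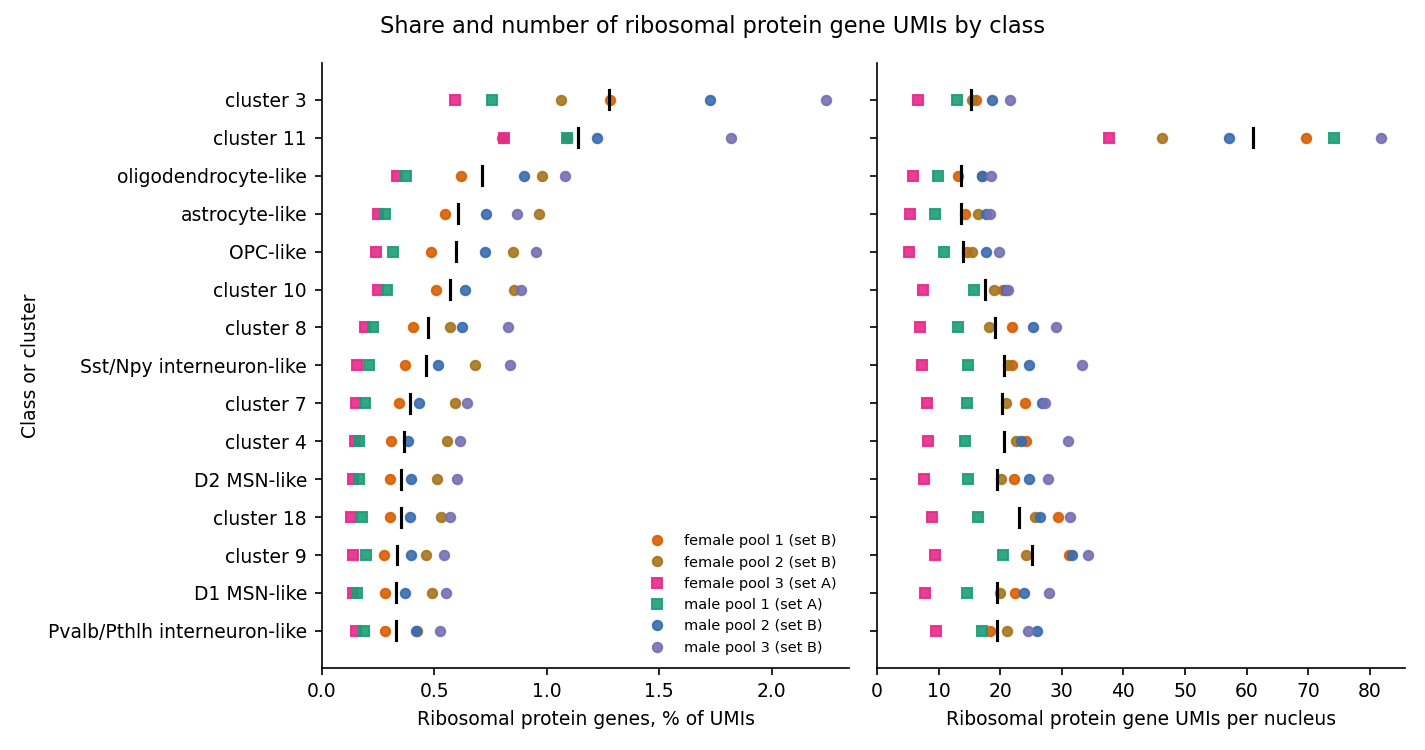
Summed member share (percent of UMIs, left) and member UMIs per nucleus (right) in the classes and clusters with at least 20 nuclei in every library, with 1 point per library, squares for set A, circles for set B, and a bar at the mean. Glia-like classes lie right of D1 MSN-like nuclei in the left panel (0.715% against 0.332% for oligodendrocyte-like nuclei) and left of them in the right panel (13.6 against 19.4 UMIs).

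Per nucleus the order turned. D1 MSN-like nuclei had 19.4 member UMIs on average, beside 13.6 in oligodendrocyte-like, 13.6 in astrocyte-like, 13.9 in OPC-like and 12.3 in microglia-like nuclei, and the ratio to D1 MSN-like nuclei was below 1 in all 6 libraries for the first 3. Median depth was 5744 UMIs in D1 MSN-like, 1742 in oligodendrocyte-like, 2185 in astrocyte-like and 2236 in OPC-like nuclei. Mitochondrial share was 1.17%, 1.96%, 1.58% and 1.59% in the same order. The spiny neuron list took 0.418% of UMIs in D1 MSN-like nuclei and 0.0922%, 0.0537% and 0.0894% in these 3 glia-like classes. By gene, 1 of its 6 was called higher than in D1 MSN-like nuclei in each of these classes, and 4, 5 and 5 were called lower. The 2 highest clusters were not named. Cluster 3 was mostly male pool 1 (1735 of 2201 nuclei). Averaged over the 6 libraries with equal weight, its median depth was 1145 UMIs and its mitochondrial share 2.57%. In male pool 1 itself these were 1545 UMIs and 0.952%, with a member share of 0.757%. Cluster 11 was led by AY172581.24, which the mitochondrial share does not count, and by genes such as Cck, Cfl1, Ubb, Calm2 and Hba-a1. Averaged over the libraries, cluster 11 had a mitochondrial share of 2.77%, and held 61.1 member UMIs per nucleus, the highest value of the classes compared.

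In oligodendrocyte-like nuclei 67 of 70 members tested were higher than in D1 MSN-like nuclei and none was lower (edgeR quasi-likelihood test, library as a block), beside 33.9% of all genes called higher. The members' median log2 fold change was 1.29, against -0.02 for all genes. The 39 large-subunit members were all called higher, as were 28 of 31 under Rps names. Rps7, a small-subunit protein that also binds the p53 regulator MDM2, had 122, 182, 59.8, 83.1, 192 and 228 CPM, beside 43.2, 106, 18.5, 27.4, 62.8 and 90.6 in D1 MSN-like nuclei (a difference of 1.52 in log2, SE 0.14, edgeR adjusted p = 1.2e-17). Rps15, a small-subunit protein, had 121, 145, 65.2, 63.6, 167 and 161 CPM, beside 38.0, 79.7, 18.9, 22.5, 57.7 and 66.6 (1.55, SE 0.14, edgeR adjusted p = 1.4e-17). In both genes the oligodendrocyte-like value was above the D1 MSN-like value of the same library in all 6. This was so for 63 of the 71 members with 500 or more UMIs, a count not made over all genes. The 3 members not called were Rps9, Rps19bp1 and the lower Rps10 feature.

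In astrocyte-like nuclei 66 of 70 members were higher than in D1 MSN-like nuclei and none was lower, beside 34.9% of all genes, with a median of 0.93. Rpl10, a protein near the centre of the large subunit where peptide bonds are formed, had 107, 140.1, 56.8, 71.3, 109 and 111 CPM, beside 43.4, 64.8, 24.6, 28.7, 54.3 and 70.3 (log2 fold change 1.10, SE 0.13, edgeR adjusted p = 2.5e-13). Each astrocyte-like value was above that of the same library's D1 MSN-like nuclei. Rps15 (1.21) and Rpl19 (1.10) followed by p-value. In OPC-like nuclei 58 of 70 were higher and none lower, beside 23.9% of all genes, with a median of 0.70. Rpl13, a large-subunit protein, had 142, 293, 108, 105, 187 and 308 CPM there, beside 68.7, 93.4, 38.2, 41.1, 86.9 and 128 (1.16, SE 0.15, edgeR adjusted p = 2.5e-11). In nuclei under 1% mitochondrial UMIs alone, 60 of 72 members were higher in oligodendrocyte-like nuclei (25.2% of all genes), 49 in astrocyte-like nuclei (27.7%) and 18 in OPC-like nuclei (17.1%), with medians of 0.84, 0.60 and 0.39. The OPC-like count was 36 among nuclei with 2000 UMIs or more.

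With the number of nuclei as the scale, no member was higher in these glia-like classes than in D1 MSN-like nuclei. Instead 55 were lower in oligodendrocyte-like nuclei, beside 87.6% of all genes called lower, 59 in astrocyte-like nuclei, beside 82.1%, and 44 in OPC-like nuclei, beside 80.2%. The members' medians were -0.46, -0.47 and -0.49, and those of all genes -1.79, -1.33 and -1.25. The members thus made up more of a smaller total, and their number per nucleus was lower by less than that of the median gene.

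Comparison lists moved in the same contrasts. Mitochondrial ribosomal protein genes had 30 of 68 higher and 6 lower in oligodendrocyte-like nuclei (median 0.36), 23 higher and 4 lower in astrocyte-like nuclei (0.30) and 6 higher and 4 lower in OPC-like nuclei (0.05). Abundant cytoplasmic mRNAs had 11 of 12 higher in oligodendrocyte-like nuclei (median 1.34), 10 higher and 1 lower in astrocyte-like (0.73) and 8 higher and 1 lower in OPC-like nuclei (0.58). Translation factors and TOP genes had 12 of 18 higher and 1 lower in oligodendrocyte-like nuclei (0.63). Of the list of nuclear long noncoding RNAs 1 gene, Snhg11, was tested, and it was lower in oligodendrocyte-like nuclei (log2 fold change -2.90).

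3 classes with fewer nuclei (at least 8 in every library) were fitted after seeing the data. In microglia-like nuclei 65 of 70 members were higher than in D1 MSN-like nuclei and none lower, beside 23.9% of all genes, with a median of 1.34, and Rplp1 had a log2 fold change of 1.58 (SE 0.18, edgeR adjusted p = 5.7e-13). Per nucleus 46 were lower there, beside 82.8% of all genes. In nuclei like committed oligodendrocyte precursors (cells that have started to become myelinating) 10 of 70 were higher and none lower, beside 16.4% of all genes, among them Rplp0 (0.87), the stalk's anchor. In cholinergic neuron-like nuclei 5 of 70 were lower and none higher, beside 17.2% of all genes called lower, among them Rplp1 (-0.73, SE 0.19, edgeR adjusted p = 0.0011). These nuclei are deep, with a mean of the library medians of 11026 UMIs, and per nucleus 43 members were higher in them, beside 67.8% of all genes.

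Few members were called between neuronal classes. Between D2 MSN-like and D1 MSN-like nuclei no member of 70 was called by edgeR or DESeq2 and none had an unadjusted p under 0.05, beside 5.63% of all genes called in either direction, and the median was 0.07. A fit of these 2 classes alone called 4. In Pvalb/Pthlh interneuron-like nuclei edgeR also called none of 70 (4 at an unadjusted p under 0.05, and 4 called by DESeq2), beside 37.1% of all genes in either direction, with a median of -0.08. In Sst/Npy interneuron-like nuclei 5 of 70 were higher and none lower, beside 14.2% of all genes higher, with a median of 0.15. Rpl37a had 102, 183, 49.4, 95.5, 145 and 245 CPM there, beside 62.5, 101, 36.2, 37.1, 83.2 and 132 in D1 MSN-like nuclei (a difference of 0.60 in log2, SE 0.20, edgeR adjusted p = 0.012), higher in all 6 libraries. Rpl17, Rpl10 and Rps9 were among the others, and leaving out male pool 3 left 1 called, and male pool 2, 2. Without female pool 3 or male pool 1 the count was 8. Without TMM scaling factors 16 members were called, and all genes split into 2707 higher and 1589 lower in place of 1652 and 2382. The same change moved the split from 1859 and 2457 to 2289 and 1957 in Pvalb/Pthlh interneuron-like nuclei and from 2781 and 3144 to 3480 and 2524 in OPC-like nuclei. With DESeq2 13 members were called in Sst/Npy interneuron-like nuclei.

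**Figure D4:**
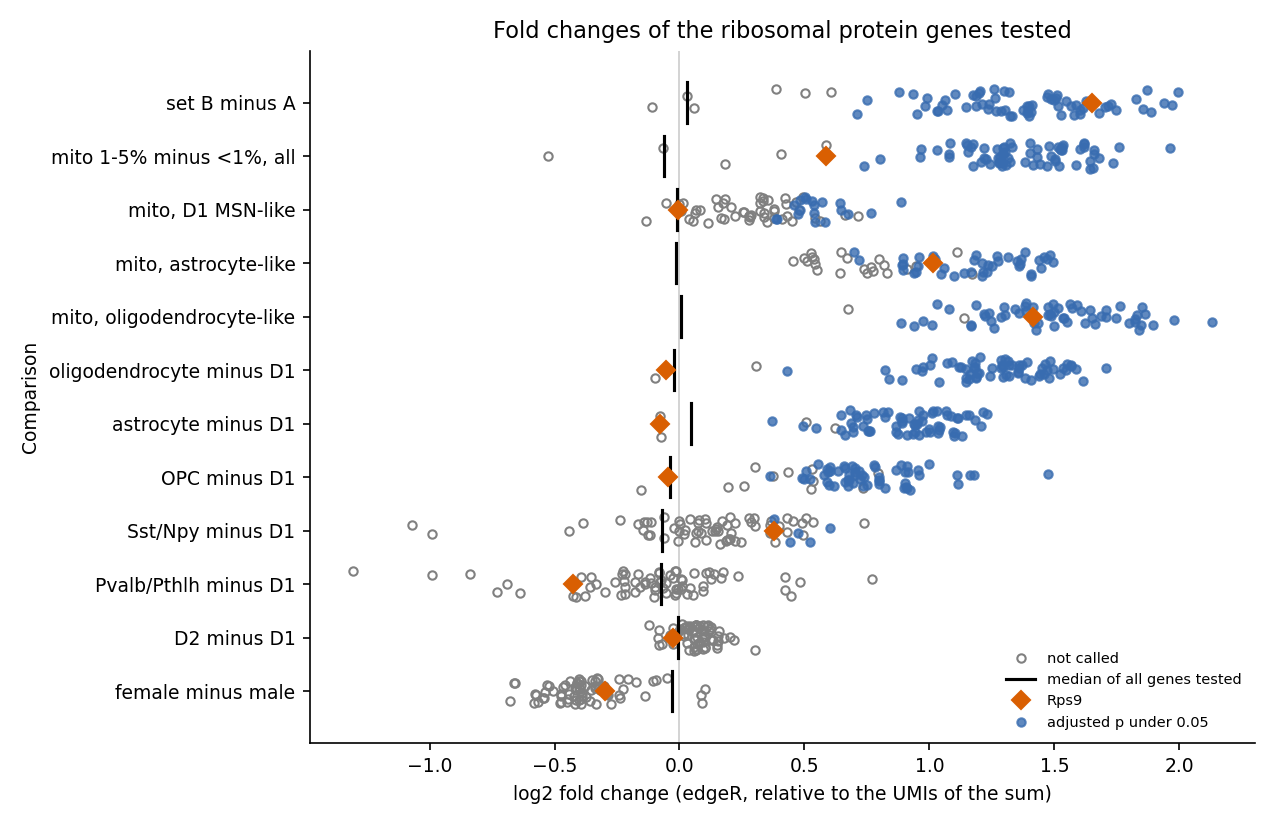
log2 fold change of each member tested (horizontal axis) in 12 comparisons, with filled points for members called at an adjusted p under 0.05, open points for others, a bar at the median of all genes tested and a diamond for Rps9. Most points lie right of the bar in the glia-like and mitochondrial comparisons (median 1.29 against -0.02 for oligodendrocyte-like nuclei). Points to the left of it include a large-subunit member at -0.53 in the mitochondrial comparison over all kept nuclei. Rps9 sits at -0.05, -0.08 and -0.05 in oligodendrocyte-like, astrocyte-like and OPC-like nuclei.

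Members moved across classes together, with few exceptions. Over the 15 classes the Spearman correlation between the mean level of a member and the summed level of the others had a median of 0.921 among the 71 members with 500 or more UMIs, and 44 were at 0.9 or above. These points share libraries and depth, so the value is a description. The 5 lowest were Rpl7l1 (-0.043), the Rps10 feature ENSRNOG00000000490 (0.225), Rps9 (0.279), Rps19bp1 (0.45) and the Rpl21 feature ENSRNOG00000000957 (0.771). Among these members with a promoter in the table, the 32 with the pyrimidine run had a median correlation of 0.932 and the 23 without it 0.929.

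Of these, only Rps9 was among the 10 members with most UMIs, and it has the run shown above. In oligodendrocyte-like nuclei it had 96.9, 81.7, 41.7, 55.4, 150.1 and 155 CPM, beside 147, 103, 41.3, 44.7, 159 and 180.5 in D1 MSN-like nuclei (a difference of -0.05 in log2, SE 0.14, edgeR adjusted p = 0.74). The oligodendrocyte-like value was the higher one in the set A libraries and the lower one in all 4 of set B. Rpl19 in the same nuclei had 183, 289, 108, 107, 249 and 342 CPM, beside 80.9, 133, 30.3, 35.5, 91.8 and 148. It was above the D1 MSN-like value in each library. In microglia-like nuclei Rps9 was called higher (0.89, SE 0.18, edgeR adjusted p = 1.4e-05). As a share of member UMIs, Rps9 took 3.45% ± 1.13 (SD, n = 6) in D1 MSN-like nuclei, 4.09% ± 1.97 in Sst/Npy interneuron-like, 2.05% ± 0.867 in OPC-like, 1.75% ± 0.392 in astrocyte-like and 1.37% ± 0.299 in oligodendrocyte-like nuclei.

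In Sst/Npy interneuron-like nuclei Rps9 had 274, 217, 40.6, 58.5, 290.1 and 251 CPM, above D1 MSN-like nuclei in 5 of 6 libraries (log2 fold change 0.38, SE 0.16, edgeR adjusted p = 0.0498). That call was lost without female pool 1 (adjusted p = 0.136), male pool 2 (0.152) or male pool 3 (0.0773), and in nuclei under 1% mitochondrial UMIs the value was -0.12. With mitochondrial share Rps9 also differed between classes in its values. It had 153 and 145, 156 and 167, and 178 and 186 CPM under 1% and at 1% to 5% in D1 MSN-like nuclei of female pool 1, male pool 2 and male pool 3 (log2 fold change -0.0049, edgeR adjusted p = 0.99). In oligodendrocyte-like nuclei it had 72.5 and 104, 31.2 and 103, 43.1 and 130, and 66.3 and 163 CPM in female pools 1 and 3 and male pools 1 and 2 (1.42, SE 0.23, edgeR adjusted p = 3.8e-05). That call was lost on the per-nucleus scale (1.07, edgeR adjusted p = 0.0655) and with barcodes at 5% or more in place of 1% to 5% (1.38, edgeR adjusted p = 0.0523). The difference between the classes was not tested. Between the sets of libraries Rps9 followed the other members, with a log2 fold change of 1.65 (SE 0.20, edgeR adjusted p = 0.0011).

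Rps19bp1 had class means of 20.3 to 25.0 CPM in the 7 named classes fitted and was not called in these 3 glia-like comparisons, with log2 fold changes of -0.10 in oligodendrocyte-like, -0.07 in astrocyte-like and -0.16 in OPC-like nuclei. Its library levels were 17.6, 22.1, 15.7, 17.5, 25.3 and 36.2 CPM. The lower Rps10 feature was higher in astrocyte-like nuclei (0.83, SE 0.24, edgeR adjusted p = 0.0013), a call lost in nuclei under 1% mitochondrial UMIs (0.64, edgeR adjusted p = 0.0688), and not called in oligodendrocyte-like nuclei (0.31). Rpl7l1 was at or under 12.1 CPM on average in each of the 7 named classes fitted, where single libraries had 0 UMIs in some.

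**Figure D5:**
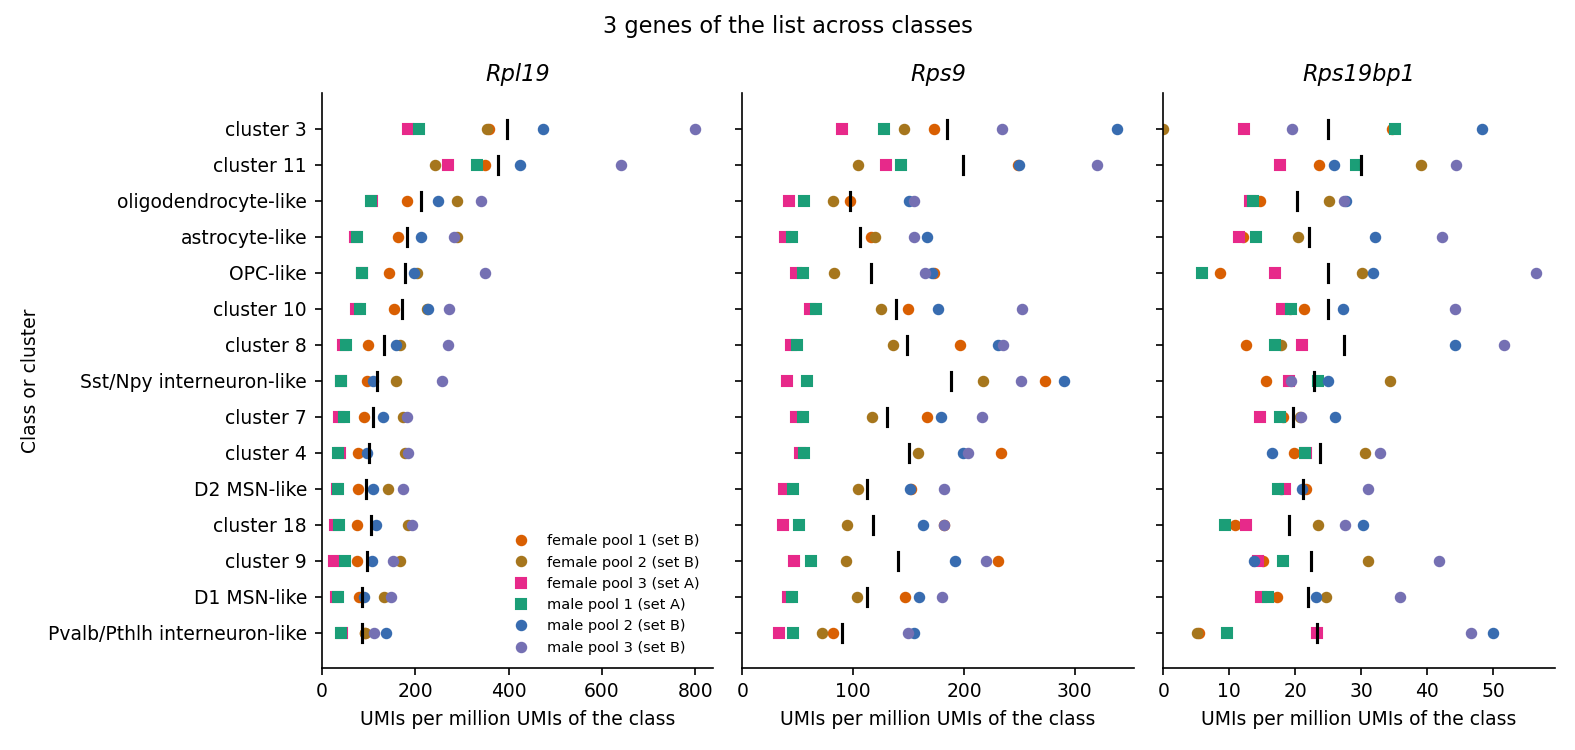
Level of Rpl19, Rps9 and Rps19bp1 (CPM of the class, horizontal axis) by class or cluster, with 1 point per library, squares for set A, circles for set B, and a bar at the mean. Rpl19 falls from the glia-like classes to D1 MSN-like nuclei (213 to 86.6 on average for oligodendrocyte-like against D1 MSN-like), while Rps9 does not (96.8 to 113).

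The sexes were compared with the label set as a covariate. No member of 74 was called by edgeR's quasi-likelihood test or by DESeq2, beside 0.0432% of all genes called in either direction. At an unadjusted p under 0.05 there were 20 members (27.0%), beside 7.38% of all genes. The median log2 fold change, female minus male, was -0.39 against -0.03 for all genes, and 3 of 74 members had a value above 0. Rpl31, among the members with the smallest p-values, had a value of -0.58 and an edgeR adjusted p of 0.64. In set A, female pool 3 was below male pool 1 for Rpl31 (15.3 against 23.1 CPM), and in set B the female pools (48.6 and 65.2) were below the male pools (74.8 and 107). Mitochondrial share was 0.227% in the female and 0.360% in the male pool of set A. In set B it was 1.46% and 2.69% in the female and 1.40% and 1.89% in the male pools. Its part in the members' values was not tested.

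Within the 15 classes, 1 member in 920 tests was called, beside 0.0839% of all genes over the same fits, and 216 (23.5%) had an unadjusted p under 0.05, beside 5.86% of all genes. The member called was Rps23, a small-subunit protein at the decoding site, in cluster 8, a neuronal cluster without a class name led by Chst9, Col14a1 and Grm8. Its level was 85.9, 92.8 and 28.4 CPM in female pools 1, 2 and 3 and 48.4, 181 and 258 CPM in male pools 1, 2 and 3 (log2 fold change, female minus male, -1.11, SE 0.20, edgeR adjusted p = 0.0037). Within each set the female values were below the male ones, while over both sets the groups overlapped. Without male pool 3 the adjusted p was 0.489, and in nuclei under 1% mitochondrial UMIs 0.538. Leaving out each library in turn gave 0 to 7 members called over these classes, 7 of them without female pool 2 and none without male pool 3.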

How the data were processed

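Nuclei of the nucleus accumbens shell were profiled in 6 libraries, 3 of each sex. The deposited matrices hold raw UMI counts per gene and barcode, made with Cell Ranger 4.0.0 per the file headers, against rn6 per the submitters' processing notes. The annotation release, and whether intron reads were counted, are not given in the sources used here. Library totals were 13342828 to 109315226 UMIs over all 41974 barcodes.

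Barcodes with at least 500 UMIs, 300 genes and under 5% mitochondrial UMIs were kept. Mitochondrial genes were those with symbols starting with mt-, in upper or lower case, and no others. The doublet caller marked 0 to 61 barcodes per library, too few to use, so the barcodes with the highest doublet scores were removed at 0.8% per 1000 barcodes (2.30% to 13.2%). Nuclei were clustered in scanpy 1.11.5 (3000 variable genes, 30 components, 20 neighbours, resolution 1, 35 clusters) without the ribosomal protein genes, 235 genes being left out in all. Clusters were named from marker genes (at least 3 markers high).

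Counts were summed per library, or per class and library with at least 20 nuclei, and tested with edgeR 4.0.16 (quasi-likelihood, TMM factors, R 4.3.3, limma 3.58.1), with Benjamini-Hochberg adjustment over all genes and a threshold of 0.05. DESeq2 1.42.0, no TMM factors, no filter on low counts, leaving out each library, a replicate block, depth, mitochondrial and marker limits on nuclei, and no doublet removal were the alternatives. A per-nucleus scale and classes with at least 8 nuclei were chosen after seeing the data. The fits were also run on simulated data, drawn from a single mean profile with a common dispersion. Those data did not carry the differences between libraries and classes found here, so they say little about errors under such differences.

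The members and lists were chosen with earlier results of these data known. Genes named were the 10 with most UMIs, the 3 with the smallest p in each direction of a comparison (2 where none was called), close relatives, the 5 least correlated with the other members over classes, and those at 0. Others named are exceptions to a count and were chosen after their values were seen. Some genes that this rule names are not reported here.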

Additional observations from a re-analysis of the deposited data

How the results depend on the processing

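Of the alternatives to the summed shares, all 96 moved by less than the spread between libraries. For those that leave out a library this was fixed in advance, because leaving out a library cannot move a class mean by more than that spread. For values of single libraries the spread was the SD within a sex, which spans both sets and is wide. Leaving out each library in turn gave ranges of 0.288% to 0.371% for D1 MSN-like, 0.303% to 0.395% for D2 MSN-like, 0.641% to 0.791% for oligodendrocyte-like and 0.535% to 0.679% for astrocyte-like nuclei. Counts of members called ranged from 13 to 69 for the label sets, 64 to 67 (astrocyte-like), 67 to 68 (oligodendrocyte-like), 51 to 61 (OPC-like), 1 to 8 (Sst/Npy interneuron-like) and 0 to 1 (Pvalb/Pthlh interneuron-like). For mitochondrial share they ranged from 24 to 69 (all nuclei), 10 to 12 (D1 MSN-like), 14 to 43 (astrocyte-like) and 43 to 63 (oligodendrocyte-like), and for sex within classes from 0 to 7. The cause of each change was not tested.

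On the per-nucleus scale 20 members were higher for the label sets. In the direction called per UMI there were 0 in the astrocyte-like, oligodendrocyte-like, OPC-like, microglia-like and cholinergic neuron-like comparisons (medians -0.47, -0.46, -0.49, -0.51 and 0.61), while 59, 55, 44 and 46 were lower and, in the last, 43 higher. The counts were 2 higher in committed oligodendrocyte precursor-like (median -0.025), 1 higher in Sst/Npy and 4 higher in Pvalb/Pthlh interneuron-like nuclei, and 26, 10, 25 and 30 for mitochondrial share. Single genes that turned on that scale were, in astrocyte-like nuclei, Rpl19 (-0.30), Rps10 (-0.52), Rpl10 (-0.29), Rps15 (-0.19) and Rpl21 (-1.03). In oligodendrocyte-like nuclei they were Rps15 (-0.21), Rps7 (-0.22) and Rpl21 (-1.33), and in OPC-like nuclei Rpl13 (-0.035), Rps3 (-0.076) and Rpl28 (-0.016). In microglia-like nuclei they were Rpl41 (-0.52), Rplp1 (-0.26), Rps9 (-1.02) and Rpl37a (-0.19), in cholinergic neuron-like nuclei Rplp1 (0.069) and Rpl7 (0.23), and with mitochondrial share over all nuclei Rpl21 (-0.014).

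In nuclei under 1% mitochondrial UMIs the counts were 18 (OPC-like), 1 (Sst/Npy), 2 (Pvalb/Pthlh) and 2 (sex within classes), Rps9 in Sst/Npy interneuron-like nuclei was -0.12, and Rpl21 was -0.059 in astrocyte-like and -0.0014 in oligodendrocyte-like nuclei. At 2000 UMIs or more they were 36 (OPC-like), 3 (Sst/Npy), 2 (Pvalb/Pthlh) and 23 (mitochondrial share, astrocyte-like). Sst/Npy counts were 16 without TMM factors, 13 with DESeq2, 1 without the low-count filter, 1 with nuclei carrying markers of their own class (median -0.0093, Rps9 -0.59) and 12 for the pair alone. Pvalb/Pthlh counts were 3, 4, 2 and 3 without TMM factors (median 0.04), with DESeq2 (median 0.05), without the filter and for the pair alone, and 3 without doublet removal. For D2 MSN-like nuclei the pair alone gave 4. DESeq2 gave 0 and 25 for mitochondrial share in D1 MSN-like and astrocyte-like nuclei, and barcodes at 5% or more gave 29 in oligodendrocyte-like nuclei. That alternative could not be fitted for D1 MSN-like nuclei. Sex within classes gave 4 without the filter.

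Whether the replicate numbers pair the pools could not be decided. Same-numbered pools correlated at -0.771, 0.263 and -0.633 over 16204 genes, but numbers 1 and 3 each join a set A library with a set B library. Female pool 3 and male pool 1, both of set A, correlated at 0.850. With a replicate block, 0 members were called between the sexes over all nuclei (median -0.36) and 0 within classes, where Rps23 in cluster 8 had -1.12. Depth limits the small classes and the members under 100 UMIs, 24 in number.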
